A study of Homo sapiens with 4 samples.

Results

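SMO, GLI2, GLI3, SUFU and DISP2 are 5 genes of the Hedgehog pathway, chosen by their symbols in the deposited table from 12838 symbols in all. SMO, GLI3 and DISP2 each had 1 table entry, and GLI2 and SUFU had 2 each, which were added up. The libraries held RNA that came down with an antibody to EXOSC10, a nuclear 3′ to 5′ exoribonuclease of the RNA exosome, or with control IgG. The cells were LM2-4175, obtained from the breast carcinoma line MDA-MB-231 by selection for lung metastasis. All of them carried a doxycycline-inducible construct of CerS4, a ceramide synthase, and grew in puromycin and hygromycin. The 4 groups were EXOSC10 with doxycycline (5 µg/mL for 48 h), EXOSC10 untreated, IgG with doxycycline and IgG untreated, with 1 library each. The submitters' stated aim was to see how mRNA bound to EXOSC10 changes with doxycycline, in work on mRNA decay and a complex of PD-L1 with Caprin-1. The controls were untreated cells of the same construct line. No library without the construct was analysed here, so an effect of doxycycline itself and of CerS4 cannot be told apart. Input RNA was not analysed here either, so a ratio of EXOSC10 to IgG compares immunoprecipitates and not a share of the cell's mRNA.

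In Hedgehog signalling a secreted ligand binds the receptor PTCH1, which otherwise holds the membrane protein SMO inactive. Active SMO at the primary cilium releases the GLI transcription factors from their inhibitor SUFU, and the GLI factors then switch target genes on. GLI2 acts mainly as an activator and GLI3 largely as a repressor. The lipid-modified ligand is let out of the producing cell by Dispatched proteins, the family to which DISP2 belongs. SMO itself is regulated by sterols.

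Sequencing depth for mRNA was low and uneven. The deposited values are CPM (reads of a gene per 1000000 reads of the library), and dividing by the CPM worth of 1 read gave 5511209 and 4233591 estimated reads with EXOSC10, with doxycycline and untreated, and 7575128 and 3723290 with IgG in the same order. Ribosomal RNA took between 56.3% and 83.8% of a library. Other genes were left with 2408177 reads in the EXOSC10 library with doxycycline and with 1023361 to 1229744 reads in the other libraries. Levels are given as CPM scaled by TMM (trimmed mean of M values), a factor that sets most genes to equal levels between libraries. With no replicate in any group, a 95% interval on a value covers counting error only. From bulk RNA, fewer cells carrying an mRNA and less mRNA per cell cannot be told apart. Of 10 mesenchymal markers of these cells, 9 had an entry, with a summed level of 568 and 652 scaled CPM with EXOSC10 (doxycycline, untreated) and 993 and 1464 with IgG. Of 9 luminal epithelial markers, 7 had an entry (112 to 179 scaled CPM in sum) and ESR1 and EPCAM had none. Of 7 blood markers only LYZ had an entry (0 to 1.72 scaled CPM), and of 8 fibroblast and endothelial markers 3 had (9.37 to 23.5 scaled CPM in sum).

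Neither the induced gene CERS4 nor CD274, the gene of PD-L1, had an entry analysed here. CAPRIN1, whose product binds RNA in stress granules, had 1251 reads with EXOSC10 and doxycycline, 499 with EXOSC10 untreated, 852 with IgG and doxycycline and 826 with IgG untreated. EXOSC10 mRNA had 78, 15, 21 and 6 reads in these libraries in that order.

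SMO mRNA, encoding the signal transducer of the pathway, was lower with EXOSC10 than with IgG. It had 94 reads with EXOSC10 and doxycycline, 43 with EXOSC10 untreated, 190 with IgG and doxycycline and 123 with IgG untreated. These are 6.82 (95% interval 5.51 to 8.35), 8.22 (5.95 to 11.1), 55.5 (47.9 to 64.0) and 46.1 (38.3 to 55.0) scaled CPM in that order. Under TMM both EXOSC10 libraries lay below both IgG libraries with intervals far apart, whereas the intervals of the treatments overlapped within each antibody. The size of the gap depended on the scaling. With the library total as scaling the log2 ratio of EXOSC10 to IgG was -0.55 with doxycycline and -1.68 untreated. The medians of all genes were then 2.65 and 0.83. Doxycycline over untreated with EXOSC10 was then 0.74, beside 1.04 over all genes. SMO lies on chr7:129188633-129213545 (GRCh38.p14), overlaps no other annotated gene in the table used, and its reads were whole numbers in every library.

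GLI3 mRNA, encoding the GLI factor that is largely a repressor, was lower with EXOSC10 than with IgG in the cells given doxycycline. It had 137 reads with EXOSC10 and doxycycline, 68 with EXOSC10 untreated, 81 with IgG and doxycycline and 42 with IgG untreated. The levels were 9.94 (8.35 to 11.8), 13.0 (10.1 to 16.5), 23.7 (18.8 to 29.4) and 15.7 (11.3 to 21.3) scaled CPM. Ordered by level, each library overlapped its neighbour, and the highest (IgG with doxycycline) was apart from both EXOSC10 libraries. GLI3 lies on chr7:41960949-42264268 and contains the pseudogene HMGN2P30, which has no entry of its own.

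SUFU mRNA, encoding the inhibitor that holds GLI factors in the cytoplasm, had nearly the same level in the 4 libraries under TMM scaling. It had 93 reads with EXOSC10 and doxycycline, 42 with EXOSC10 untreated, and 22 with IgG in each treatment. The levels were 6.75 (5.45 to 8.27), 8.03 (5.79 to 10.9), 6.43 (4.03 to 9.73) and 8.25 (5.17 to 12.5) scaled CPM, and all 4 intervals overlapped. SUFU lies on chr10:102502819-102633535, where RPL23AP58 and RNU6-43P also lie, both without an entry.

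DISP2 mRNA, encoding the Dispatched family member, had more reads with EXOSC10 than with IgG. It had 89 reads with EXOSC10 and doxycycline, 39 with EXOSC10 untreated, 13 with IgG and doxycycline and 7 with IgG untreated. The levels were 6.46 (5.19 to 7.95), 7.45 (5.30 to 10.2), 3.80 (2.02 to 6.50) and 2.62 (1.05 to 5.41) scaled CPM. Both EXOSC10 libraries were the high ones, but at the low counts with IgG the intervals of the 4 libraries overlapped. DISP2 lies on chr15:40358219-40378621 and overlaps LOC124903472, a long non-coding RNA gene without an entry.

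GLI2 mRNA, encoding the main activator among the GLI factors, reached 10 reads in the EXOSC10 library with doxycycline alone. It had 54.4 reads with EXOSC10 and doxycycline, 0 with EXOSC10 untreated, 0 with IgG and doxycycline and 4.73 with IgG untreated. The levels were 3.95 (2.97 to 5.15), 0 (0 to 0.705), 0 (0 to 1.08) and 1.77 (0.553 to 4.23) scaled CPM. The intervals of the first and last of these overlapped, so few reads with IgG untreated do not mean that GLI2 was missing there. GLI2 lies on chr2:120735868-120992653 and overlaps the long non-coding RNA genes LOC124907881 and LOC124907880, neither with an entry.

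**Figure D1:**
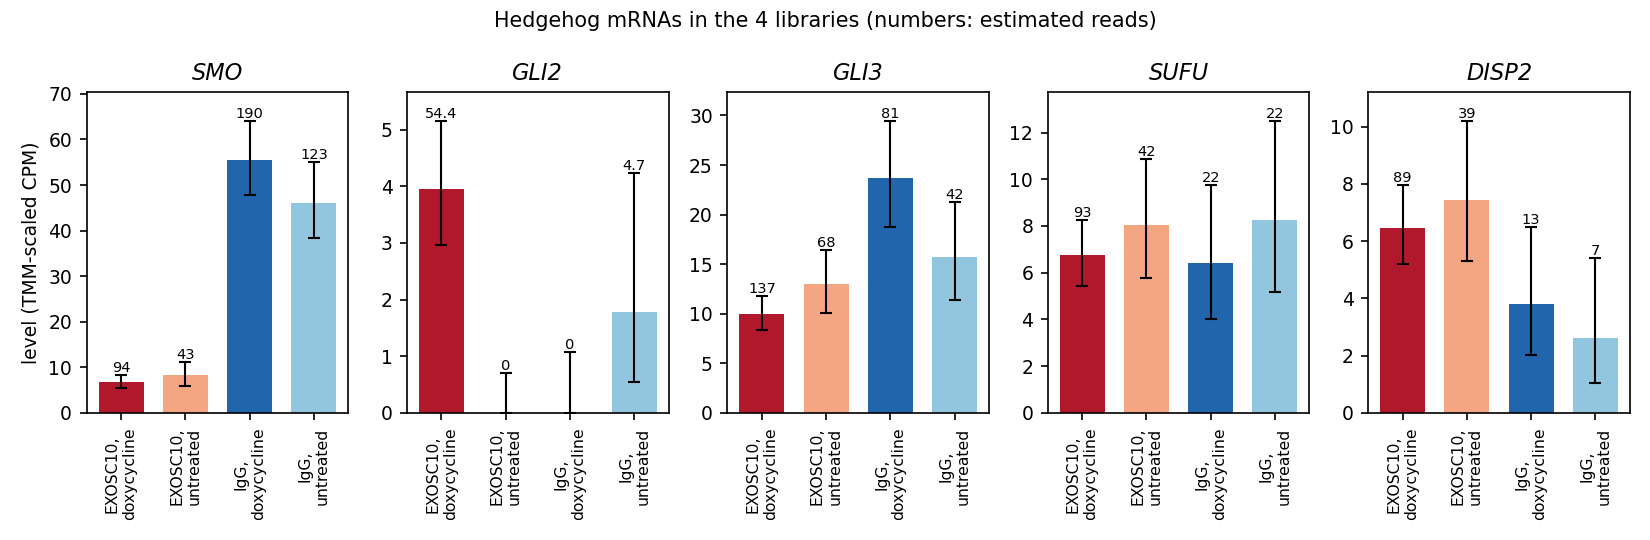
Level of each Hedgehog mRNA (vertical axis, TMM-scaled CPM, a separate linear scale from 0 for each gene) in the 4 libraries, with EXOSC10 left of IgG and doxycycline left of untreated. Bars are single libraries, error bars are 95% counting intervals and the numbers are estimated reads. SMO is low in both EXOSC10 libraries, SUFU is nearly level, and GLI2 has 54.4 reads in the EXOSC10 library with doxycycline and 0 in 2 others.

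The table entries behind GLI2 and SUFU differed in kind. The 2 entries of GLI2 held 36.7 and 17.8 reads with EXOSC10 and doxycycline, and 3.19 and 1.55 reads with IgG untreated. In both libraries the first entry was 2.06 times the second and their sum was not whole, so the reads of GLI2 are divided shares and not a count. Intervals and limits given for GLI2 leave out the error of the dividing and are too narrow. SUFU's entries summed to whole reads in every library. Its first entry held 83.2 and 42.0 reads with EXOSC10 (doxycycline, untreated), and 12.8 and 9.59 with IgG. The second held 9.85 and 0 reads with EXOSC10 and 9.21 and 12.4 with IgG. The first entry thus held 89.4% and 100% of SUFU's reads with EXOSC10, against 58.1% and 43.6% with IgG. The shares with IgG rest on 22 reads in each library, divided between the entries, and carry no interval. Under TMM the level of SUFU was even across antibodies while the split between its entries, as given, was not. The deposited table does not name the transcripts of these entries. By the first entry alone, the ratio of EXOSC10 to IgG in untreated cells was 1.17 on the log2 scale in place of -0.04.

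**Figure D2:**
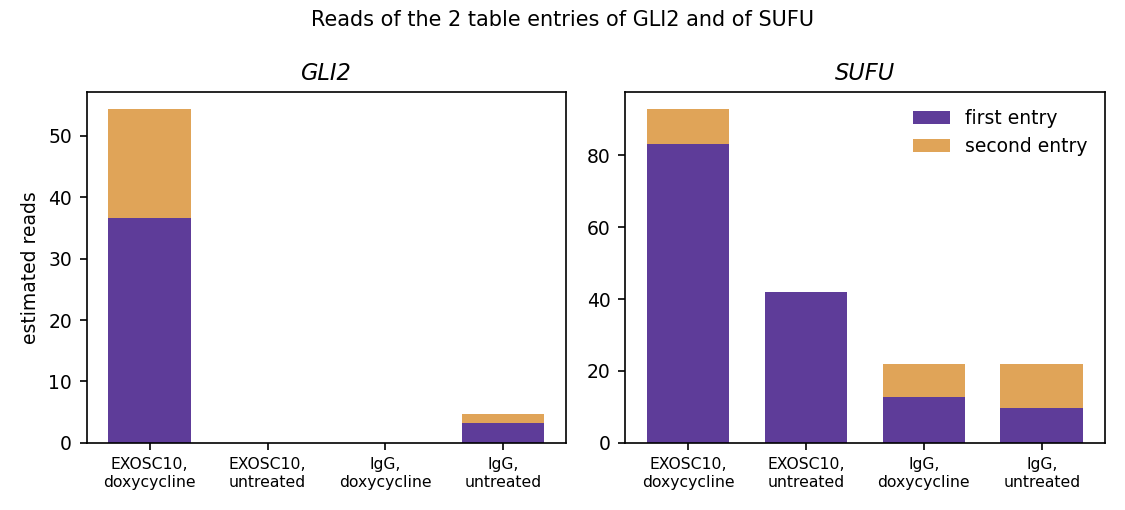
Estimated reads (vertical axis, linear from 0) of the 2 table entries of GLI2 and of SUFU, stacked, in the 4 libraries. For SUFU the second entry has 0 reads in the untreated EXOSC10 library and 12.4 of its reads in the untreated IgG library.

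The first comparison was EXOSC10 with doxycycline over EXOSC10 untreated, the submitters' primary contrast. None of the 4 Hedgehog mRNAs with at least 100 reads in the pair of libraries differed 2-fold. Of all 6585 genes with 100 reads, 6.06% were at least 2-fold higher with doxycycline and 3.98% at least 2-fold lower. The log2 ratio, taken with a pseudocount of 0.2 CPM, was -0.26 (-0.80 to 0.29) for SMO and -0.38 (-0.82 to 0.06) for GLI3. It was -0.24 (-0.79 to 0.31) for SUFU and -0.20 (-0.76 to 0.38) for DISP2. All 4 were slightly below 0 with intervals that included it, while the median of all genes was 0.04. With the total as scaling all 4 were above 0, from 0.62 for GLI3 to 0.80 for DISP2, where the median of all genes was 1.04. The intervals leave room for a change of up to about 0.82 downwards and 0.38 upwards, so smaller changes were not detectable at this depth. No pair among these 4 mRNAs had a difference between ratios whose interval excluded 0.

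GLI2 was at least 6.89-fold higher in the EXOSC10 library with doxycycline than in the untreated one, taking a floor of 3 reads for the library at 0 and no counting error on the 54.4 reads. With that error the 95% limit of the log2 ratio nearest 0 was 2.44, a limit that takes divided shares as counts. GLI2 lay below the minimum of 100 reads. The library in question held more non-ribosomal reads than any other, and 2862 genes (22.3%) reached 10 reads in it alone, against 296 (2.31%) in the untreated EXOSC10 library, 50 (0.389%) in IgG with doxycycline and 22 (0.171%) in IgG untreated. Among all symbols, 54 genes had at least 50 reads with EXOSC10 and doxycycline and 0 with EXOSC10 untreated. Of them 12 also had 0 with IgG and doxycycline, GLI2 included. Every entry analysed reached 10 reads in some library, and GLI2 did so with EXOSC10 and doxycycline alone. Being high there was thus a condition of its entry, so the bound is no independent support for a change. Whether depth or the dividing of reads between entries takes part in the GLI2 result was not tested.

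With IgG, the same treatment contrast gave 0 of 2 Hedgehog mRNAs (SMO and GLI3, the ones with 100 reads) past 2-fold. Over all 3029 genes with 100 reads, 3.14% were higher and 3.43% lower. SMO stood at 0.27 (-0.07 to 0.61) and GLI3 at 0.58 (0.03 to 1.16) on the log2 scale. By TMM scaling GLI3 was thus higher with doxycycline in the IgG libraries by more than counting error, but with the total as scaling it was at -0.08 and SMO at -0.39, where the median of all genes was -0.65. SUFU, with 44 reads in the pair, was at -0.35 (-1.28 to 0.56) and DISP2, with 20 reads, at 0.50 (-0.90 to 2.10), which the total as scaling turned to -0.12. GLI2 had 0 reads with doxycycline against 4.73 untreated, and the 95% limit of its log2 ratio nearest 0 was -0.12. Since it takes divided shares as counts, this limit cannot decide whether 0 is excluded.

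Across both antibodies, a fit in limma of doxycycline with the antibody as covariate called none of the 4 Hedgehog mRNAs tested, and 0% of all 9608 genes. At an unadjusted p under 0.05 the fit held 432 genes. The limma log2 changes were 0.00 for SMO (adjusted p = 1.00), 0.10 for GLI3 (0.982), -0.30 for SUFU (0.928) and 0.15 for DISP2 (0.982). GLI2 was not tested, since only 1 library reached 10 reads. The smallest adjusted p of any gene in this limma fit was 0.849, with 1 residual degree of freedom.

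The second comparison was EXOSC10 over IgG. SMO was 7.94-fold lower with EXOSC10 in cells given doxycycline (log2 -2.99, -3.40 to -2.66) and 5.50-fold lower in untreated cells (-2.46, -3.02 to -1.98). Only 108 of the 6279 genes with 100 reads had a lower ratio with doxycycline (1.72%), and 93 of 3622 (2.57%) in untreated cells. In the limma fit over both treatments SMO was at -2.72 (SE 0.323, adjusted p = 0.00206), lower in both treatments. Of 9608 genes tested, 88 (0.916%) had a lower limma value. SMO was below 0 in both treatments under each of the 9 settings of scaling, pseudocount, entries and rounding, from -3.09 to -0.55 with doxycycline and from -2.48 to -1.46 untreated. The limma call depended on the settings, and the adjusted p was 0.127 without the mean-variance trend and 0.543 with the total as scaling.

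GLI3 was 2.35-fold lower with EXOSC10 in cells given doxycycline (log2 -1.23, -1.66 to -0.84), and in untreated cells its ratio was -0.27 (-0.85 to 0.31). That difference depended on the scaling: it was -0.84 with the upper quartile, -0.21 with the non-ribosomal total and 1.20 with the total, where the median of all genes was 0.67, 1.29 and 2.65. In limma GLI3 was at -0.75 (SE 0.380, adjusted p = 0.215). SUFU was at 0.07 (-0.61 to 0.81) with doxycycline and at -0.04 (-0.82 to 0.78) untreated, and limma gave 0.02 (adjusted p = 0.985). This evenness depended on the scaling. With doxycycline SUFU was at 0.46 with the upper quartile, 1.08 with the non-ribosomal total and 2.46 with the total. Untreated it was at 0.27, 0.95 and 0.73 in that order, and each value was below the median of all genes. DISP2 was at 0.74 (-0.08 to 1.73) with doxycycline and, on 46 reads, at 1.44 (0.33 to 2.91) untreated. It was above 0 in both treatments under each of the 9 settings, and limma gave 1.09 (SE 0.586, adjusted p = 0.239). GLI2 was higher with EXOSC10 in cells given doxycycline, on 54.4 against 0 reads, with the 95% limit of the log2 ratio nearest 0 at 1.82. In untreated cells it had 0 reads with EXOSC10 against 4.73 with IgG, and that limit was -0.73. Both limits take divided shares as counts and are too narrow to decide whether 0 is excluded. GLI2's place among the genes analysed rests on the EXOSC10 library with doxycycline alone.

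Among the Hedgehog mRNAs with 100 reads, 2 of 4 (SMO and GLI3) were past 2-fold lower with doxycycline and 0 higher, beside 26.6% of all genes lower and 14% higher. With other scalings the 4 gave 3 higher and 0 lower (total), 2 higher and 1 lower (non-ribosomal total), 1 higher and 1 lower (upper quartile) or 0 higher and 2 lower (median of ratios). In untreated cells 1 of 2 (SMO) was lower and 0 higher under all 5 scalings, beside, under TMM, 36% of all genes lower and 5.52% higher. By limma 1 of the 4 tested was lower and 0 higher, beside 15.6% of all genes lower and 1.28% higher. Counts over so few genes say little against this background, and SMO stands out by the size of its ratio.

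**Figure D3:**
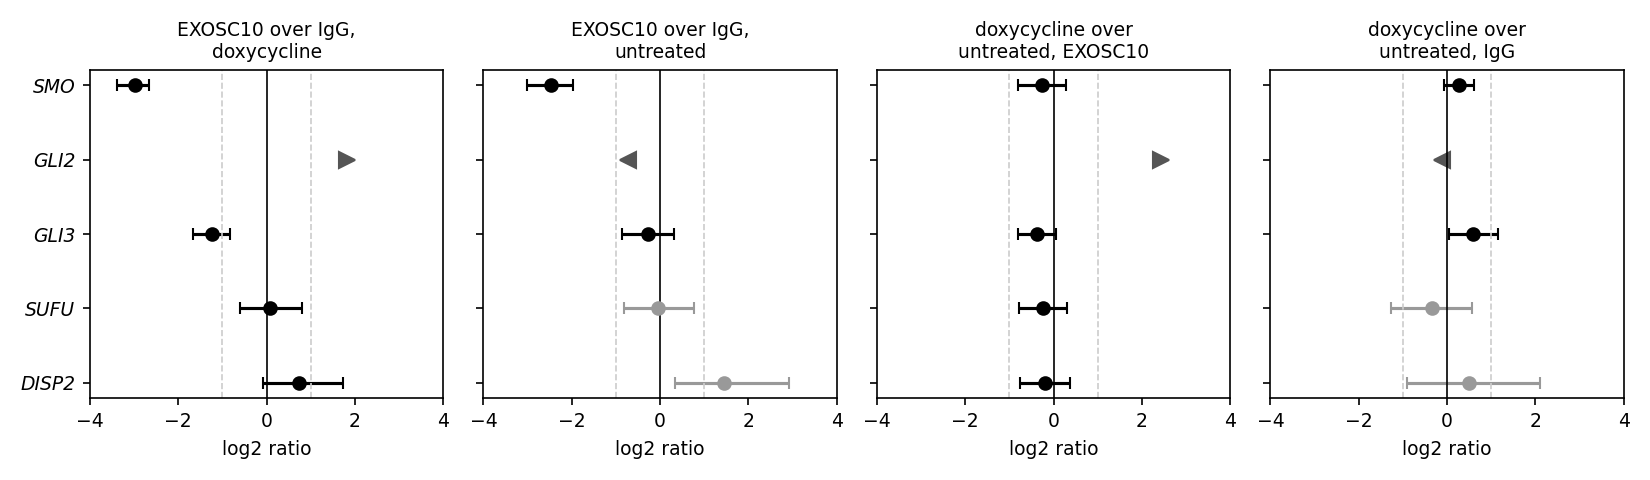
Log2 ratio of scaled CPM (horizontal axis) for the 5 Hedgehog mRNAs in 4 comparisons. Circles are ratios with 95% counting intervals, black with at least 100 reads in the pair and grey below that. Triangles for GLI2 mark the 95% limit nearest 0, which leaves out the error of dividing its reads. Dashed lines mark 2-fold, and SMO lies at -2.99 and -2.46 in the EXOSC10 over IgG panels.

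The contrast between the Hedgehog mRNAs does not depend on the scaling, because a scaling factor moves all genes of a library alike. In cells given doxycycline the EXOSC10 over IgG log2 ratio of SMO minus that of GLI3 was -1.75 (-2.29 to -1.22), minus that of SUFU -3.06 (-3.82 to -2.30) and minus that of DISP2 -3.72 (-4.64 to -2.81). In untreated cells the same differences were -2.19 (-2.93 to -1.44), -2.42 (-3.32 to -1.52) and -3.90 (-5.16 to -2.63). SMO was thus the lowest of the 4 in both treatments by more than counting error. GLI3 minus DISP2 was -1.97 (-2.90 to -1.04) with doxycycline and -1.71 (-3.00 to -0.42) untreated, so GLI3 was below DISP2 in both. GLI3 and SUFU were apart with doxycycline (-1.30, -2.08 to -0.52), and untreated their difference was -0.23 (-1.16 to 0.69). SUFU minus DISP2 was -1.48 (-2.86 to -0.10) in untreated cells and -0.67 (-1.74 to 0.41) with doxycycline. The differences with SUFU depended on its entries: by the entry with the most reads alone, SUFU minus DISP2 in untreated cells was -0.32 (-1.86 to 1.22) and GLI3 minus SUFU -1.39 (-2.54 to -0.23). These 2 intervals take SUFU's divided shares as counts and leave out the error of the dividing, so they are too narrow to decide whether 0 is excluded.

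**Figure D4:**
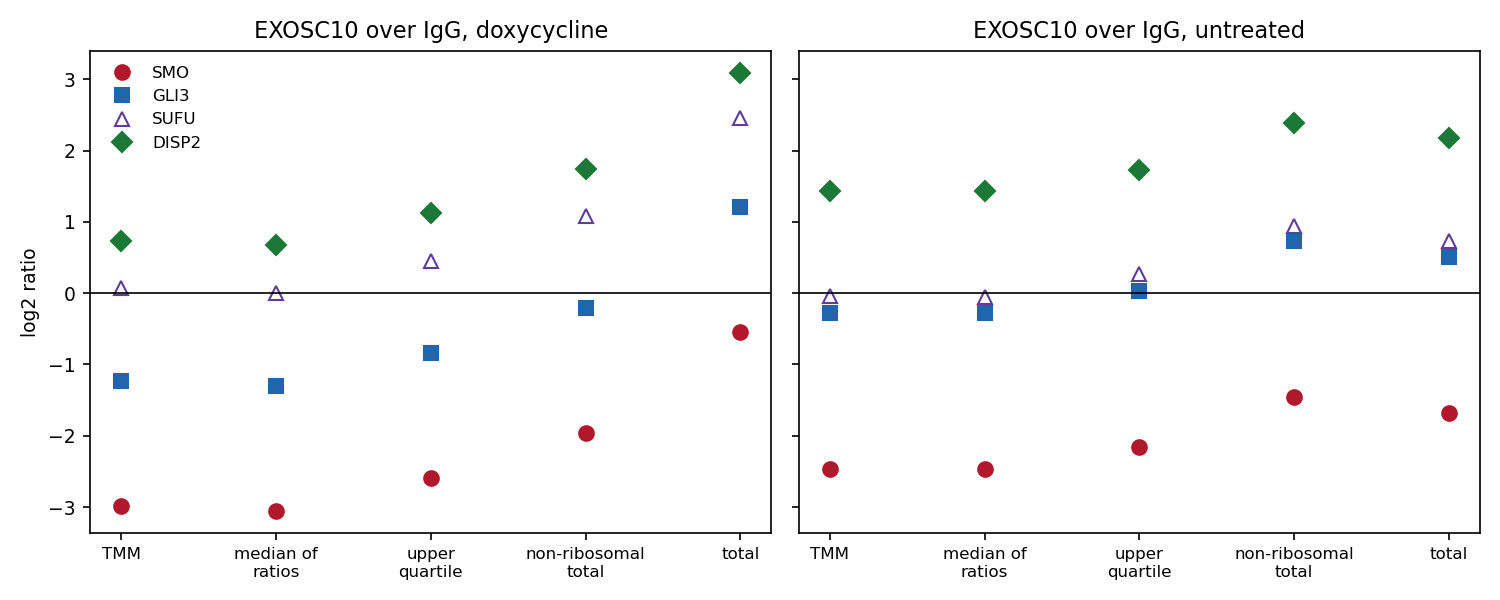
Log2 ratio of EXOSC10 over IgG (vertical axis) of SMO, GLI3, SUFU and DISP2 under 5 scalings (horizontal axis), with doxycycline at left and untreated at right. The 4 mRNAs move together from scaling to scaling. SMO stays below 0, and GLI3 with doxycycline lies at -1.23 under TMM and at 1.20 under the total.

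The third comparison was the change of the EXOSC10 over IgG ratio with doxycycline, which needs 100 reads in each antibody's pair. Under TMM neither of the 2 mRNAs with that many (SMO and GLI3) changed 2-fold, beside 4.72% of all 2948 genes higher and 11% lower. GLI3 came closest, at -0.96 (-1.64 to -0.28), and 356 genes (12.1%) were lower still. It was just past 2-fold with median-of-ratios scaling (-1.02) and with the top entry of each gene alone (-1.12). SMO was at -0.53 (-1.14 to 0.09). With the total as scaling the values were 0.70 for GLI3 and 1.13 for SMO, below the shift of 1.65 that this scaling gave to the median of all genes.

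Each Hedgehog mRNA was set beside the genes of most similar pattern, by the root mean square difference of centred log2 levels over the 4 libraries, among 7521 genes with 100 reads. Nearest to SMO were ZMYM2 (0.0846), VPS54 (0.0932) and HS2ST1 (0.102). Nearest to GLI3 were PRPF8 (0.0530), MAPRE3 (0.0537) and BAZ2A (0.0609). SUFU was nearest to CRTC1 (0.0168), SBNO2 (0.0206) and ZNF143 (0.0222), and DISP2 to COX4I1 (0.0218), PMM2 (0.0325) and ATP5IF1 (0.0334). For GLI2 the nearest were LRRC20 (0.360), AMZ2 (0.530) and RIC1 (0.692), a much looser match. LRRC20 had 104 reads with EXOSC10 and doxycycline, 2.9 with EXOSC10 untreated, 1.3 with IgG and doxycycline and 13.2 with IgG untreated.

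A wider Hedgehog list of 84 further genes had 67 with an entry, grouped here in 7 roles. Among ligands and their release, SHH, DHH, HHAT, SCUBE1 and SCUBE2 had no entry analysed here. IHH, encoding Indian hedgehog, had 57 reads with EXOSC10 and doxycycline and 0 in each of the other 3 libraries, at least 7.22-fold higher than with EXOSC10 untreated by the floor of 3 reads (95% limit of the log2 ratio nearest 0, 2.51). SCUBE3, a secreted protein related to those that help release the ligand, had 82 and 21 reads with EXOSC10 (doxycycline, untreated) and 19 and 7 with IgG. DISP1, the main Dispatched protein, had at most 10.6 reads in a library. The IHH pattern was that of GLI2 without the reads in IgG untreated, and 3 genes of the table showed it at 50 reads or more. Like GLI2, IHH reached the 10 reads of every entry with EXOSC10 and doxycycline alone. Its bound is thus no independent support for a change either.

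Among receptors, PTCH1, which inhibits SMO and is itself a target gene of the pathway in many tissues, had 5 entries with 81.3 and 33.0 reads with EXOSC10 (doxycycline, untreated) and 68.9 and 15.1 with IgG. Its EXOSC10 over IgG log2 ratio was -1.74 with doxycycline and 0.15 untreated. MGRN1, a ubiquitin ligase that lowers the amount of SMO at the cell surface in mouse, had 246 and 99 reads with EXOSC10 (doxycycline, untreated) and 73 and 33 with IgG. Its EXOSC10 over IgG log2 ratio was -0.25 with doxycycline and 0.61 untreated. MOSMO, a further attenuator of SMO, was at -1.46 with doxycycline and -0.85 untreated for EXOSC10 over IgG. None of the 7 receptor genes tested passed the limma test of the antibody, beside 15.6% of all genes lower and 1.28% higher. Their median was -0.79, beside 0.22 over all genes. BOC, GAS1 and LRP2 had no entry analysed here.

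GLI1 and ZIC1 had no entry analysed here among the transcription factors and partners. IQCE, which anchors a ciliary complex, was at -0.18 with doxycycline and 0.62 untreated for EXOSC10 over IgG. KIF7, a kinesin that regulates GLI proteins in the cilium, was at -0.87 and 0.03, on 66 and 48 reads. STK36 was at 0.20 and 0.03, on 32.2 and 33.8 reads. ZIC2, a zinc finger factor related to the GLI family, was at 0.07 on 42 reads. Untreated, ZIC2 was at 0.67 (-1.19 to 3.26) on 13 reads, below the minimum of 20 for a list median. None of the 5 tested in this role passed the limma test of the antibody, beside 15.6% of all genes lower and 1.28% higher.

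The roles of kinases and of ubiquitin ligases accounted for most of the further genes called lower with EXOSC10. Some of their proteins phosphorylate GLI proteins or mark them for cleavage or destruction. The kinase role also held regulatory subunits of protein kinase A and the arrestins ARRB1 and ARRB2, and the ligase role held the adaptor NUMB. In limma 8 of 16 genes of the kinase role passed as lower (median -1.18) and 5 of 12 of the ligase role (median -1.42). None passed as higher. Of all genes 15.6% were lower and 1.28% higher, with a median of 0.22. Over all genes the median fell with abundance, to -1.25 for those with 1000 reads or more. With the total as scaling limma called only 6 of all genes lower. The casein kinase CSNK1D had 676 and 297.6 reads with EXOSC10 (doxycycline, untreated) and 638 and 825.4 with IgG, with a limma log2 value of -2.18 (SE 0.258, adjusted p = 0.00206). CSNK1A1 was at -1.58, CSNK1G2 at -1.64 and PRKAR1A, the regulatory subunit of protein kinase A, at -1.25, all called by limma. CUL3, a scaffold of cullin ligases, had 627.6 and 313 reads with EXOSC10 and 782.9 and 760 with IgG, with a limma value of -2.29 (SE 0.242, adjusted p = 0.00206). FBXW11, the relative of the F-box protein BTRC, was at -2.02 and SKP1 at -2.10, both called. SPOP, an adaptor that brings GLI2 and GLI3 to CUL3, was at 0.19 with doxycycline and -1.10 untreated for EXOSC10 over IgG.

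Of cilium and trafficking genes 0 of 9 passed the limma test of the antibody, beside 15.6% of all genes lower and 1.28% higher. Their median was 0.40, beside 0.22 over all genes. FKBP8, an inhibitor of the pathway in mouse, was at 0.45 with doxycycline and 0.76 untreated for EXOSC10 over IgG. KIF3B, a subunit of the anterograde ciliary motor, was at -0.01 and -0.57. DYNC2H1, the heavy chain of the retrograde motor, was at -0.37 and, on 44 reads, at 1.15 (0.07 to 2.51). IFT172, a subunit of the transport particles, was at -1.42 and -1.26, on 81 and 43 reads. EVC2, IFT88 and FUZ had no entry analysed here, and neither did the kinase GRK3.

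Of genes known as Hedgehog targets from other settings 2 of 9 (22.2%) passed the limma test as lower with EXOSC10, beside 15.6% of all genes. They were CCND1 (cyclin D1) and BCL2 (an inhibitor of apoptosis), at -1.07 and -2.16. CCND1 had 1618 and 734 reads with EXOSC10 (doxycycline, untreated) and 672 and 982 with IgG. FOXM1, a factor of cell division, had 313 and 124.6 reads with EXOSC10 and 32 and 60.9 with IgG, and was past 2-fold higher for EXOSC10 over IgG with doxycycline (1.26). It was the single such gene among 36 of the list with 100 reads under TMM, beside 14% of all genes. At 20 reads there were 9. The Notch ligand JAG2 was at -0.24 in both treatments. CCND2, MYCN and FOXF1 had no entry analysed here.

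Over the 57 further genes tested, limma called 15 lower (26.3%) and 0 higher with EXOSC10, with a median of -0.65 beside 0.22 over all genes. The 15 called genes had a median of 983 reads in all, the 42 others of the list 145 and all tested genes 219. Over all genes the share called lower was 0.889% below 100 reads, 5.21% from 100 to 300, 25.3% from 300 to 1000 and 57.0% from 1000 upwards. In the same classes the list had 0 of 14, 2 of 18, 6 of 17 and 7 of 8 called lower. SMO and GLI3 fell in the class from 300 to 1000 reads, SUFU and DISP2 in that from 100 to 300. The limma median of all genes fell over these classes too, at 0.60, 0.35, -0.07 and -1.25. Abundance thus moved with the calls and with the ratio itself, and its part in the list's lower median was not tested.

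**Figure D5:**
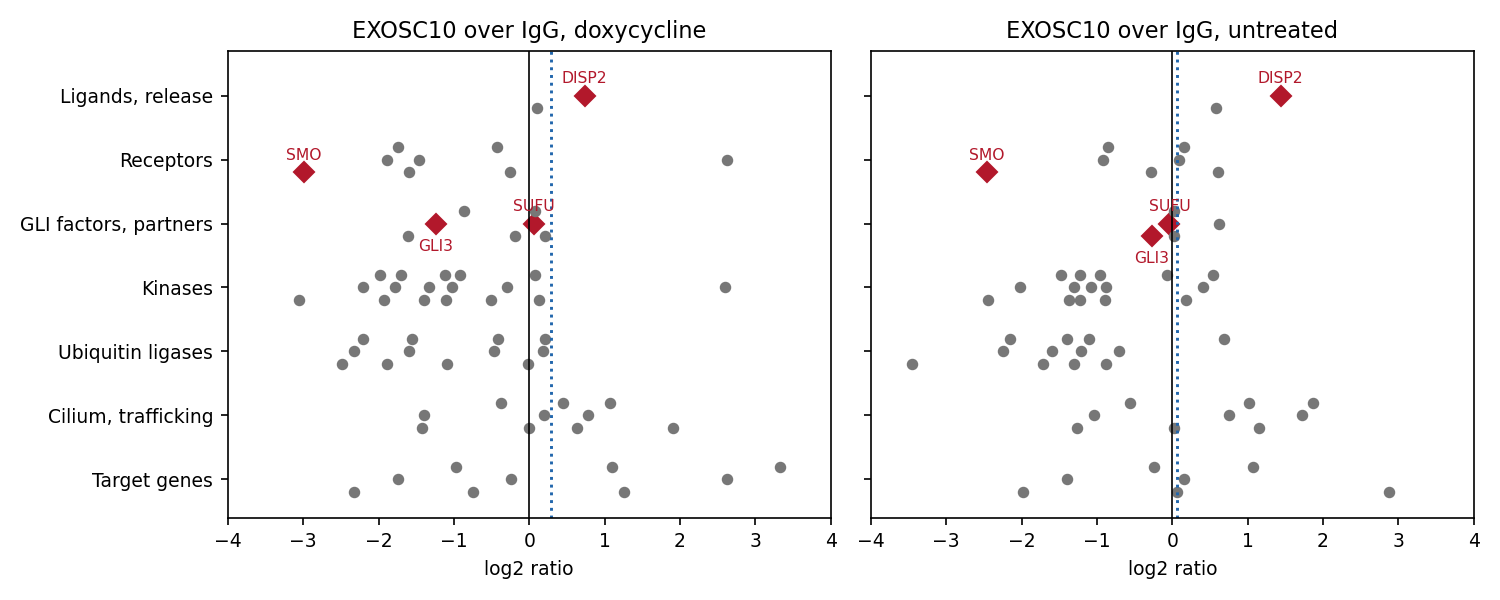
Log2 ratio of EXOSC10 over IgG (horizontal axis) of the Hedgehog list by role (vertical axis), for genes with at least 20 reads in the pair and reads in both libraries. Red diamonds are SMO, GLI3, SUFU and DISP2, grey dots are further genes, spread vertically for legibility, and the dotted line is the median of all genes. Genes of the kinase and ubiquitin ligase roles lie mostly left of that line, under TMM scaling.

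Read pair by pair, the further list genes had a median EXOSC10 over IgG ratio of -0.51 with doxycycline (61 genes with 20 reads), beside 0.29 over all genes. With 100 reads, 20 of 36 (55.6%) were 2-fold lower and 1 higher, beside 26.6% and 14% of all genes. In untreated cells the median was -0.86 (52 genes) beside 0.06, with 14 of 26 (53.8%) lower and 0 higher, beside 36% and 5.52% of all genes. The sign of the list median depended on the scaling: with doxycycline it was 1.91 with the total (2.65 over all genes) and 0.52 with the non-ribosomal total (1.29 over all genes), below all genes each time. Doxycycline over untreated gave medians of -0.20 with EXOSC10 (61 genes, 0.04 over all genes) and 0.04 with IgG (44 genes, -0.01 over all genes). Past 2-fold with 100 reads under TMM with EXOSC10 were 1 of 34 higher and 2 lower, beside 6.06% and 3.98% of all genes. Higher was NUMB, an endocytic adaptor of the ligase ITCH (1.12), and among those lower was CSNK1G2 (-1.16). With IgG it was the kinase DYRK2, higher (1.08), out of 25, beside 3.14% of all genes higher and 3.43% lower. For the change of the ratio with doxycycline 1 of 24 was past 2-fold higher and 4 lower, beside 4.72% and 11% of all genes. Higher was SPOP (1.29), and among those lower were DYRK2 (-1.50), CSNK1G2 (-1.12) and GRK2 (-1.02). These genes depended on the scaling and the minimum of reads. With the total, list genes past 2-fold were 10 higher and 0 lower (EXOSC10), 0 and 8 (IgG) and 18 and 0 (change). The medians of all genes were then 1.04, -0.65 and 1.58. At 20 reads under TMM the list counts were 6 and 8, 4 and 2, and 4 and 8. Shares of all genes for these alternatives are not given here, so the counts are no result about the list. Of the genes in these medians, 1 of 61 was at 0 in a library for EXOSC10 with doxycycline over untreated. For EXOSC10 over IgG with doxycycline 2 of 61 were, and for the other pairs 0. Setting these genes to their bound kept them above the medians, so it could not change the medians.

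The promoters of the list were searched for the consensus of the GLI zinc fingers, the letters GACCACCCA on either strand, because GLI2 and GLI3 would act there. RefSeq windows of 300 bases (250 before the start site and 50 after it, GRCh38.p14) held these letters in 83 of 35116 (0.236%). Of 106 windows of 68 list genes 1 did, that of PTCH1, shown because PTCH1 is the classic GLI target. No window of SMO, GLI2, SUFU or DISP2 held them (5 windows, none given for GLI3). The stretch is chr9:95509390-95509478 on the minus strand, with the motif, here on the opposite strand, in capitals and starting 172 bases before the start site.
PTCH1: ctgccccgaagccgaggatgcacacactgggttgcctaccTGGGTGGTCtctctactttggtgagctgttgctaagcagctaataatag
The match describes the sequence, and no value in these libraries measures binding to it.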

How the data were processed

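RNA recovered with EXOSC10 antibody or IgG was sequenced after SMARTer library preparation, per the labels' protocols. Alignment and counting named STAR, Partek and build hg38 per the submitters' processing notes, with no versions. The deposited table of 24015 entries holds CPM: each column sums to 1000000 apart from a constant of 0.0001 CPM on every entry, which was subtracted. Reads were estimated as CPM divided by the step of 1 read, which was 0.181, 0.236, 0.132 and 0.269 CPM (EXOSC10 with doxycycline, EXOSC10 untreated, IgG with doxycycline, IgG untreated). Only 67.1% to 69.3% of genes with reads were within 0.05 of a whole read, so no count model was used. Every entry reached 10.0 reads in some library, so scarcer genes were not analysed here.

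Scaling was by TMM, trimming 30% of ratios and 5% of levels (factors 2.50, 1.24, 0.452 and 0.716 in the same order). Ratios are log2 of scaled CPM + 0.2, a scale that understates changes of low genes, with exact Clopper-Pearson 95% intervals on reads. For the change of a ratio and for differences between genes the interval comes from summed reciprocal reads, and none is given with a library at 0. Both intervals and floors describe counting error alone: there were no molecular identifiers, so reads are not separate molecules. The floor of 3 reads was 0.218, 0.573, 0.877 and 1.12 scaled CPM. A call at 2-fold needed 100 reads, a list median 20 reads. limma 3.58.1 (R 4.3.3) was fitted to all 4 libraries with antibody and treatment, a variance trend and p-values adjusted by Benjamini-Hochberg (threshold 0.05), on genes with 10 reads in 2 libraries. This fit left 1 residual degree of freedom, with the other factor standing in for replication, and separate cultures are not stated in the labels. The scaling, ratio and limma steps were run on simulated whole reads of genes with 10 reads in all 4 libraries. Estimating reads from CPM, divided entries and libraries at 0 lay outside that simulation.

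The genes and lists were chosen with earlier results of these data known. Named genes are the 5 Hedgehog mRNAs, up to 4 genes per role of the wider list with the most reads, the 3 genes nearest in pattern, and 4 genes of the design. Further list genes past a threshold, LYZ, ESR1 and EPCAM were named after their values were seen. A gene that this rule would name is not reported here. Alternatives changed the scaling, pseudocount, entries summed, rounding, filters and variance model. Coordinates and promoters are RefSeq's, GRCh38.p14, the same build as hg38.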

Additional observations from a re-analysis of the deposited data

Results flagged for a closer look

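For GLI3 the doxycycline ratio had opposite signs with the 2 antibodies, and the counting interval of the difference lay away from 0. GLI3 was at -0.38 with EXOSC10 and 0.58 with IgG, a difference of -0.96 (-1.64 to -0.28). With 1 library per group the difference was not tested against replicate spread. Under the total as scaling it was 0.70, when the median of all genes was 1.58. The signs were opposite for SMO (-0.26 with EXOSC10, 0.27 with IgG) and DISP2 (-0.20, 0.50) too, where the interval of each ratio included 0. GLI2 also ran opposite ways, with 54.4 against 0 reads for doxycycline against untreated with EXOSC10 and 0 against 4.73 reads with IgG. With 2 libraries at 0 the difference of GLI2 has no interval.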

How the results depend on the processing

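No paired analysis was possible because the labels carry no replicate numbers to use as a block; the limma fits hold the other factor as covariate, and leaving a library out leaves them no residual degree of freedom. Of the alternatives run for the Hedgehog mRNAs with EXOSC10, the list medians and the counts called by limma, 82 kept the value within its counting interval or spread and 20 moved it. With total CPM as deposited, the EXOSC10 ratio of doxycycline over untreated was 0.74 for SMO, 5.66 for GLI2, 0.62 for GLI3, 0.75 for SUFU and 0.80 for DISP2. The list median was then 0.82 (EXOSC10 with doxycycline over untreated), -0.60 (IgG), 1.91 (EXOSC10 over IgG with doxycycline) and 1.28 (change), and GLI3 for EXOSC10 over IgG with doxycycline reversed to 1.20. That scaling moved the median of all genes by 1.00, -0.65, 2.37 and 1.65 in the same order, and by 0.77 for EXOSC10 over IgG untreated. Upper quartile scaling gave GLI2 4.60 and a list median of -0.11 (EXOSC10 over IgG with doxycycline), where all genes moved by 0.39. The non-ribosomal total gave GLI2 4.95 and list medians of 0.14 untreated and 0.52 with doxycycline for EXOSC10 over IgG, where all genes moved by 0.99 and 1.01. GLI2 was 2.31 with a pseudocount of 1 CPM and 6.32 with 0.05 CPM. The top entry alone gave a list median of -0.058 for the change. The limma antibody fit called 0 Hedgehog mRNAs without the trend (SMO adjusted p = 0.127) or with total CPM (SMO at -1.12, adjusted p = 0.543). It called 2 with the non-ribosomal total (SMO and DISP2, DISP2 adjusted p = 0.0279). Without a filter the SMO adjusted p was 9.55e-13 in limma. Calls over all genes were 123 higher and 1498 lower in the main limma fit, 515 and 6 with the total, 803 and 1220 with the upper quartile, 3505 and 589 with the non-ribosomal total, and 0 and 0 without the trend. They were 381 and 1806 without a filter, 360 and 1736 with a pseudocount of 1 CPM, and 51 and 731 with the top entry alone. List genes past 2-fold for EXOSC10 over IgG with doxycycline were 22 higher and 0 lower with the total, and 8 and 5 with the non-ribosomal total. The medians of all genes were then 2.65 and 1.29. Untreated, the list counts were 3 and 4 with the total and 5 and 4 with the non-ribosomal total, where all genes had medians of 0.83 and 1.05. Shares of all genes past 2-fold under these scalings are not given here. The limma doxycycline fit called 1 gene higher and 3 lower without a filter and 11 higher with the total, and the adjusted p of the Hedgehog mRNAs was at least 0.894 in all 12 settings. Changes smaller than the intervals printed were not detectable at this depth. The cause of these shifts was not tested.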

Other observations

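Some scarce genes of the Hedgehog list had most of their reads in the EXOSC10 library with doxycycline. HHIP, a decoy receptor and target gene of the pathway, had 39 reads there, 1 with EXOSC10 untreated, 1 with IgG and doxycycline and 11 with IgG untreated. SNAI2, a transcription factor of epithelial-mesenchymal transition, had 43 reads there and 0 with IgG and doxycycline. More reads need not mean a higher level, since 1 read was 0.0726 scaled CPM with EXOSC10 and doxycycline and 0.375 with IgG untreated. Under TMM the level of HHIP was higher with IgG untreated than with EXOSC10 and doxycycline. These genes were named after their values were seen, and none reached 100 reads.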
